A study of Mus musculus with 92 samples.

Results

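The genes described here are 9 mouse CC chemokines made by macrophages: Ccl2, Ccl3, Ccl4, Ccl5, Ccl6, Ccl7, Ccl8, Ccl9 and Ccl12. They were chosen by symbol in the deposited expression table, and all 9 were found among its 29956 named genes.

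CC chemokines are small secreted proteins, named for a pair of adjacent cysteines, that draw leukocytes toward their source by binding G protein-coupled receptors. Ccl2, Ccl7, Ccl8 and Ccl12 are the monocyte chemoattractant proteins, and the first, second and last of these act on Ccr2 of monocytes, while mouse Ccl8 acts on Ccr8. Ccl3 and Ccl4 are the macrophage inflammatory proteins, and Ccl3 acts on Ccr1. Ccl5 (RANTES) binds Ccr1 and Ccr3 and is known both as a T and NK cell product and as an interferon-induced gene of myeloid cells. Ccl6 and Ccl9 are rodent chemokines that act on Ccr1 and are made by myeloid cells. In the brain, microglia and infiltrating macrophages are the main sources of most of these ligands.

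RNA of mouse myeloid cells from marrow, culture or brain was sequenced in 92 libraries of 25 groups. The cells are on the FVB background. Wild-type mice gave progenitors of the bone marrow (BM progenitors, 3 libraries), enriched by removing lineage-marked cells on magnetic columns, and BM monocytes (3), enriched likewise with a monocyte kit, BMD macrophages (bone marrow-derived; 3) grown for 7 days in M-CSF at 30 ng/mL, and Microglia (9) sorted from brain. ER-Hoxb8 cells are marrow progenitors, conditionally immortalized by Hoxb8 fused to an estrogen receptor domain and kept in estradiol (0.0005 mM) and GM-CSF (10 ng/mL). They came from Cas9-expressing mice. They were sequenced as progenitors (3), as cells at day 4 of M-CSF (3) and as macrophages at day 7 (3). MLCs (microglia-like cells) are BMD cells (6) or ER-Hoxb8 cells (6) that were injected into the brains of Csf1r-/- pups within days of birth and later sorted out of them by flow cytometry. These hosts lack microglia of their own, so the MLC groups differ from Microglia in host genotype as well as in origin, and the 2 cannot be told apart. The titles of the ER-Hoxb8 MLCs name no donor mouse, so they may differ from the cultured ER-Hoxb8 cells in donor line as well. The ER-Hoxb8 MLC libraries carry 2 series of names, GFPHox (replicates 1 to 3) and WTHox (4 to 6), and 2 of the 9 Microglia libraries carry the name YSWT (8 and 9). BMD macrophage replicate 3 is named wBM, while replicates 1 and 2 are named Mac. What these names stand for is not in the labels.

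The remaining groups are all Cas9 heterozygous ER-Hoxb8 cells given a guide RNA. They carry a non-targeting guide (NTC) or one of 2 guides (sgRNA 1, sgRNA 2) against Adar, the gene of Adar1, which edits adenosine to inosine in double-stranded RNA. The Adar1 KO cells are pools of guide-bearing cells, not clones. Progenitors (NTC 3, sgRNA 1 3, sgRNA 2 3) and day 7 macrophages (NTC 3, sgRNA 1 3, sgRNA 2 5) were sequenced. In another series, sequenced at another center, NTC and sgRNA 1 macrophages received baricitinib, a JAK inhibitor that blocks signaling from interferon receptors, at each change of medium. The library titles give doses of 0, 0.0006, 0.016, 0.4 and 10 uM, with 3 or 4 libraries per dose and genotype. The treatment protocol lists 0.00064 and 0.16 uM in place of 0.0006 and 0.016 uM, so the doses are given as titled, and which middle dose was used cannot be told from the labels.

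Levels are the authors' log2 CPM, each gene's count scaled to the size of its library, with a small added prior. The authors scaled the libraries in 6 sets, each recognizable by a single lowest value in its columns. Comparisons as reported were made only inside a set: the 12 libraries of bone marrow, ER-Hoxb8 progenitor and day 4 cells; 27 of macrophages, MLCs and Microglia; 11 of NTC and sgRNA 1 cells; 8 of sgRNA 2 cells; and 33 of the baricitinib series. NTC macrophage replicate 2 was scaled alone, so it is described and enters only 1 alternative, where it is added to the NTC macrophages. Depth ran from 6.16 to 53.0 M (mega) counts per library. A level at or under 3 counts, which is 0.0567 to 0.487 CPM depending on the library, is called at the floor, a limit that covers counting error only. Of the 92 libraries, 67 were at the floor for Ccl8, 12 for Ccl12, 6 for Ccl7 and 1 for Ccl5, and 0 for the other 5 chemokines. Rose and fell below mean a limma adjusted p under 0.05 with a log2 difference of at least 2.

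Several libraries stood apart from their label. ER-Hoxb8 progenitor replicates 1 and 2 had little of the granule genes that mark such progenitors: Mpo was 4.40 and 2.77 log2 CPM against 11.20 in replicate 3, and Elane was 3.37 and 1.49 against 8.67. Their macrophage receptor gene Csf1r was 7.75 and 10.45 log2 CPM against 3.10 in replicate 3, where day 4 cells had 9.79 to 10.40, so only replicate 2 reached their level. By these markers both libraries differ from replicate 3 toward differentiated cells, so results with that group are also given without them. ER-Hoxb8 MLC replicate 6 had the least P2ry12 (4.76) and Csf1r (6.08) of its group and the most Ccr2 (11.78) and Nkg7 (8.38). Adar1 KO replicate 2 at 0.4 uM had an Isg15 level of 10.58 where the other replicates had 1.80 and 3.37, and Ifnb1, the interferon beta gene, at 6.02. Its Isg15 was above the 6.74 to 7.15 of KO cells without drug, and its Adar (7.38) was within their 6.37 to 7.42, against 4.12 and 4.21 in the other replicates at 0.4 uM. What sets this library apart, its treatment included, was not tested, and the chemokine results of KO cells at 0.4 uM are also given without it. The label Adar1 KO is not visible as less Adar RNA: without drug, no sgRNA 1 group had less than its NTC group.

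All 9 genes lie on mouse chromosome 11. In the RefSeq order, Ccl2 and Ccl7 come first, then Ccl12 and Ccl8 after Ccl11. Behind them, past 26 other protein-coding genes, sit Ccl5, Ccl9, Ccl6, Ccl3 and Ccl4 with 0 others between. Shared sequence could move counts between relatives, but in the GENCODE transcripts of a build other than the authors', 7 of the 9 had no 31-base word in common with any other gene. Ccl6 shared 18 of its 1410 words and Ccl9 120 of 2976, and neither shared any with another chemokine of the 9.

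RefSeq promoter windows (GRCm38.p6, the 250 bases before the start) were matched by symbol for 5 of the 9: Ccl3, Ccl6, Ccl8, Ccl9 and Ccl12. No entry was there for Ccl2, Ccl4, Ccl5 and Ccl7. The windows of the neighbors Ccl8 and Ccl12, which were highest in the same cells, and of Ccl9, which was lowest in them, are printed 5′ to 3′. Capitals mark motif matches. Ccl8 is on the plus strand at chr11:82114935-82115184, Ccl12 on the plus strand at chr11:82101595-82101844, and Ccl9 on the minus strand at chr11:83578637-83578886.
Ccl8: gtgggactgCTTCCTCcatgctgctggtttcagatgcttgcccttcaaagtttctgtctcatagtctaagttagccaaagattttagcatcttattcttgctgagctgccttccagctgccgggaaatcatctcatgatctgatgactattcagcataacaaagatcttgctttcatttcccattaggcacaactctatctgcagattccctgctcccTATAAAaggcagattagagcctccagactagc
Ccl12: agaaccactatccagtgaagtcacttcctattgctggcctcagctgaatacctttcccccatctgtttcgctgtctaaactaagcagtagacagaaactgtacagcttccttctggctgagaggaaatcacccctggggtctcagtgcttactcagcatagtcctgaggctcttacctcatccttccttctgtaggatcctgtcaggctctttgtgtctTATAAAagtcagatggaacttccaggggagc
Ccl9: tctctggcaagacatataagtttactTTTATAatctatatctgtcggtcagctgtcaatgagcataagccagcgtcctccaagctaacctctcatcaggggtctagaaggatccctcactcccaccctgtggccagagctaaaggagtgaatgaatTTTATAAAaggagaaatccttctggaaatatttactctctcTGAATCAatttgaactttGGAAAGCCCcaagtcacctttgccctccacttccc
Motif letters were searched on both strands of the windows. Kappa B-like letters (GGNNTTTCC) occur in 4.93% of 32851 mouse promoter windows of that length, and ISRE-like letters (GAAANNGAA), named for the interferon-stimulated response element, in 7.13%. GAS-like letters (TTCNNNGAA) occur in 7.02% and were in none of the 5 windows. AP-1 letters (TGANTCA) occur in 6.75% of all windows. For the letters of the myeloid factor PU.1 (GAGGAAG) the share is 10.6%. A TATA box, the letters of a core promoter (TATAAA), is in 12.4%. The Ccl8 window held the PU.1-like letters at −241 and a TATA box at −32 from the start, and Ccl12 held a TATA box at −31. Ccl9 held kappa B-like letters at −35, AP-1 letters at −53 and TATA letters at −224, −94 and −92, the last pair overlapping. Ccl3 held ISRE-like letters at −39, and Ccl6 held none of the 6. A match is a description of the letters and not a binding site.

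The comparison of BM monocytes with BM progenitors asks which chemokines come with the step to a monocyte in the marrow. The chemokines tested in this set were 7 of the 9, without Ccl8 and Ccl12. One, Ccl9, rose, where 2.94% of 12056 genes tested rose and 3.9% fell. Ccl9 was 5.05, 5.23 and 5.85 log2 CPM in BM progenitors and 8.41, 8.48 and 8.69 in BM monocytes. All 3 monocyte libraries were above all 3 progenitor libraries, and the log2 difference was 3.15 (SE 0.56, adjusted p = 0.00497). Ccl6 had the same layout, from 6.26, 6.49 and 6.44 to 9.32, 9.95 and 9.59, but did not pass (log2 difference 3.23, adjusted p = 0.136). With only these 2 groups in the fit it passed, as did Ccl2. Ccl5, by contrast, was present in both, at 4.51, 5.13 and 5.38 in progenitors and 3.84, 4.29 and 4.77 in monocytes. Those progenitor libraries also held T and NK cell markers, summed at 219, 412 and 413 CPM, and the monocyte libraries held 77.5, 95.0 and 143 CPM. The part of such cells in the Ccl5 level was not tested, and in bulk RNA, here and below, more cells of a type and more RNA per cell cannot be told apart. The median log2 difference of the 7 was 1.18, beside −0.09 over all genes tested.

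Immortalized ER-Hoxb8 progenitors stood far from BM progenitors: 4 of the 7 rose, where 4.53% of genes tested did, and 1 fell, where 10.8% did. The median log2 difference of the 7 was 4.28, beside −0.08 over all genes. Ccl3 was 3.11, 3.73 and 3.85 log2 CPM in BM progenitors and 9.01, 5.92 and 9.01 in ER-Hoxb8 progenitors, a log2 difference of 4.42 (SE 0.87, adjusted p = 0.00308). Ccl4 was 2.14, 3.17 and 2.97 against 10.83, 5.10 and 8.20, a log2 difference of 5.28 (adjusted p = 0.00867). For both genes every ER-Hoxb8 library was above every BM library, with a wide spread among the former. Ccl9 was 11.79, 8.88 and 10.01 in ER-Hoxb8 progenitors, all above the BM progenitors, and rose by 4.85 (adjusted p = 7.35e-05). Ccl5 went the other way, to −0.91, 0.36 and −1.80, a log2 difference of −5.79 (SE 0.51, adjusted p = 9.38e-06). The T and NK cell markers fell too, 4 of 4 tested, and summed to at most 0.746 CPM in ER-Hoxb8 progenitors, while 4 of 5 macrophage markers rose.

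Without replicates 1 and 2, the lone ER-Hoxb8 progenitor library, assumed to vary like the other groups, kept Ccl3 (log2 difference 5.44, adjusted p = 0.00167), Ccl4 (5.44, 0.00572), Ccl9 (4.63, 1.05e-05) and Ccl5 (−6.81, 8.81e-06) past the limits. Ccl7 was the call that rested on those replicates. It was at or near the floor in BM progenitors (−3.81, −2.16 and −3.81) and read 2.52, 2.59 and −2.07 in ER-Hoxb8 progenitors, where replicate 3 was barely above the BM libraries. The difference of 4.28 (adjusted p = 0.0279) dropped to 1.20 (0.588) without both, and to 3.53 or 3.49 and out of the calls without either of them. It was also lost without BM progenitor replicate 1 or 3 (4.00 each) and with an offset of 1 CPM (1.83). Ccl2 and Ccl6 were scattered in the group: Ccl2 was 3.86, 4.97 and −0.21, and Ccl6 was 13.52, 10.69 and 5.84. In both, replicate 3, the one with granule genes, was lowest, and without it both passed (Ccl2 4.14, adjusted p = 0.0346, and Ccl6 5.71, 9.61e-05).

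**Figure D1:**
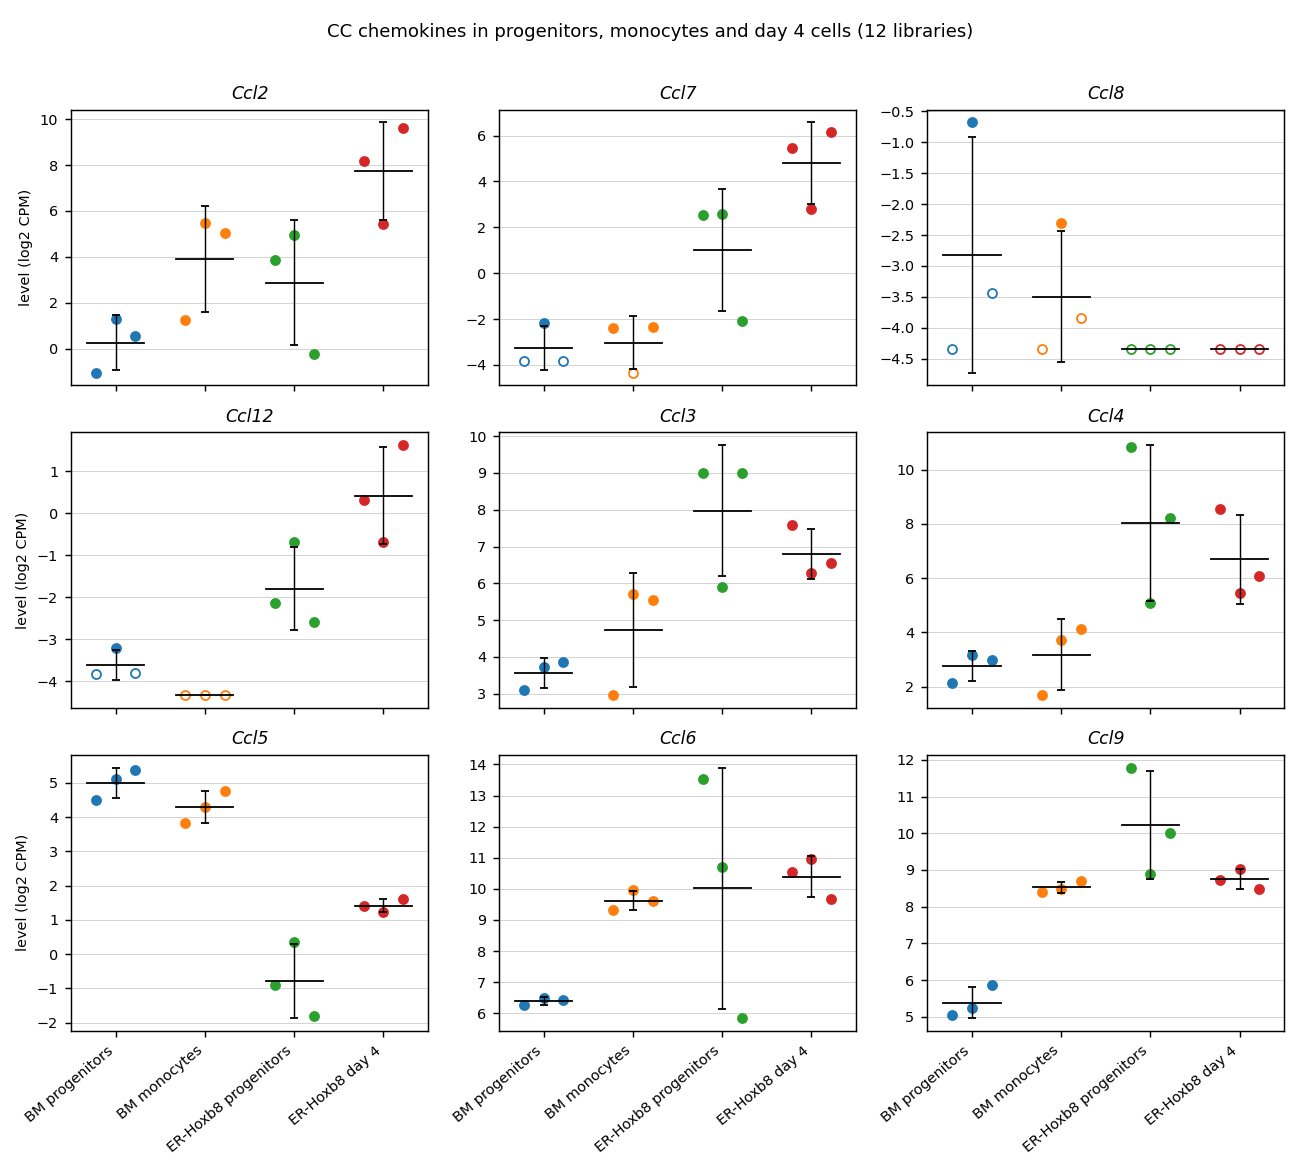
Level (log2 CPM) of each chemokine in 12 libraries of BM progenitors, BM monocytes, ER-Hoxb8 progenitors and ER-Hoxb8 day 4 cells; points are libraries, open where at or under 3 counts, and bars are mean and SD. Ccl9 is higher in all 3 BM monocyte libraries than in the BM progenitors, and the ER-Hoxb8 progenitor libraries are scattered for Ccl2, Ccl6 and Ccl7.

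Day 4 of M-CSF lies midway in differentiation. Against all 3 ER-Hoxb8 progenitor libraries, 0 of 7 passed in limma, where 0% of genes rose and 0% fell. At an unadjusted p under 0.05 the counts were 4 of the 7 and 1129 of the 12056 genes tested. Without progenitor replicates 1 and 2, an alternative chosen after seeing the data, a single progenitor library is left. The log2 differences were then 7.95 for Ccl2, 6.87 for Ccl7, 4.55 for Ccl6 and 3.21 for Ccl5. That library, replicate 3, had the least of all 4 in its group, so the selection itself favors these rises. Without replicate 2 alone 3 of the 7 passed, with rises of Ccl2 (5.91) and Ccl5 (2.77) and a fall of Ccl9 (−2.15). At day 4, Ccl2 was 8.16, 5.42 and 9.62 log2 CPM and Ccl7 was 5.44, 2.79 and 6.17, above all 3 progenitor libraries in each case. Ccl5 at day 4 was narrow, from 1.23 to 1.60, above the progenitors but below every BM monocyte. Ccl3 (7.57, 6.28, 6.55) and Ccl4 (8.54, 5.45, 6.10) overlapped the progenitors, as did Ccl6 (10.53, 10.97, 9.67) and Ccl9 (8.73, 9.02, 8.49). Ccl8 was at the floor in all 6 ER-Hoxb8 libraries of the set, and in 4 of the 6 BM libraries. Ccl12 was at the floor in the 3 BM monocyte libraries and read 0.32, −0.69 and 1.63 at day 4, whose median is at least 18.7-fold higher.

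A macrophage grown from ER-Hoxb8 cells was then set beside one grown from marrow, to ask whether the immortalized source makes the same cell. Of the 9 chemokines, all tested, 0 passed in limma, where 0.272% of 12518 genes rose and 1.58% fell. At an unadjusted p under 0.05 there were also 0 of the 9, and 1071 of the genes. This does not show that the levels were alike, because both groups were loose. Ccl2 was 5.38, 2.78 and 9.11 log2 CPM in BMD macrophages and 7.48, 5.54 and 0.04 in ER-Hoxb8 macrophages. Ccl7 was 2.86, 1.10 and 6.26 against 4.78, 3.10 and −3.08, where the last is at the floor. Each range of one overlapped the other, with BMD replicate 3, the library named wBM, the highest and ER-Hoxb8 replicate 3 the lowest for both genes. Ccl12 had the same extremes, at 3.69 and at the floor. Ccl4, at 6.86, 6.68 and 7.67 against 7.93, 5.96 and 7.11, overlapped as well. Ccl6 did not: it was 8.77, 9.19 and 6.94 against 10.54, 9.97 and 9.76, higher in all 3 ER-Hoxb8 libraries, with a log2 difference of 1.79 that did not pass (adjusted p = 0.648). Ccl8 was at the floor in 5 of these 6 libraries.

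Engraftment in the brain was compared with culture in each source of cells. The paper describes the injected cells as bone marrow or ER-Hoxb8 progenitors, so the macrophages are a parallel culture and not the cells injected. MLCs were also sorted before RNA extraction, while macrophages were lysed in the dish. Brain residence cannot be told apart from these steps. In BMD MLCs against BMD macrophages, 3 of the 9 rose, where 9.67% of genes did, and 3 fell, where 6.26% did. In ER-Hoxb8 MLCs against ER-Hoxb8 macrophages, 5 of the 9 rose, where 9.55% did, and 1 fell, where 9.75% did. The median log2 difference over the 9 was 0.20 and 5.83, beside −0.01 and −0.15 over all genes tested. Ccl8 at its bound leaves the second median as it is. The all-gene medians of the other comparisons with ER-Hoxb8 MLCs were −0.20 for the difference between sources, −0.10 against Microglia and −0.22 against BMD MLCs. In size, these and the −0.15 above were smaller than every chemokine difference that passed in the same comparison. Some differences that did not pass, those of Ccl4 against macrophages and Ccl6 against BMD MLCs, were smaller still.

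The monocyte chemoattractant proteins made up most of the gain. Ccl12 was −0.34, −1.97 and 3.69 log2 CPM in BMD macrophages and 0.38, −0.08 and −3.62 in ER-Hoxb8 macrophages. It was 5.63 at the lowest, 9.80 at the median and 11.02 at the highest in BMD MLCs, and 7.98, 12.89 and 13.75 in ER-Hoxb8 MLCs. No MLC library overlapped the macrophages of its own source. It rose by 8.71 (SE 1.20, adjusted p = 7.64e-06) in BMD cells and by 13.29 (SE 1.20, adjusted p = 4.98e-09) in ER-Hoxb8 cells.

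Ccl8, its neighbor on the chromosome, was at −3.62, −1.95 and −3.62 log2 CPM in BMD macrophages and at the floor in all 3 ER-Hoxb8 macrophage libraries. In BMD MLCs it ranged from −0.40 through a median of 0.47 to 3.62, and in ER-Hoxb8 MLCs from 3.35 through 7.98 to 9.31. The ranges are separate, although the BMD MLC levels are low. Ccl8 rose by 4.02 (SE 1.03, adjusted p = 0.00443) in BMD cells, a call lost with an offset of 1 CPM (1.57). In ER-Hoxb8 cells it also rose (adjusted p = 1.24e-08), and the median MLC library was at least 2402-fold higher than the highest floor of the macrophage libraries, and the lowest library at least 95.5-fold.

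Ccl2 and Ccl7 rose in ER-Hoxb8 cells but not, in the fit as reported, in BMD cells. Ccl7 was 3.84, 5.18 and 6.75 log2 CPM (lowest, median, highest) in BMD MLCs, overlapping the BMD macrophages, and 7.80, 10.96 and 11.83 in ER-Hoxb8 MLCs, above every macrophage library. Ccl2 was 5.33, 5.78 and 7.03 in BMD MLCs, inside the macrophage range, and 8.42, 10.65 and 11.12 in ER-Hoxb8 MLCs. In ER-Hoxb8 cells Ccl7 rose by 8.77 (SE 1.23, adjusted p = 6.28e-06) and Ccl2 by 5.83 (SE 1.11, adjusted p = 0.000284). Without ER-Hoxb8 macrophage replicate 3, which had the least of both, the Ccl2 difference was 3.67 and still passed. In BMD cells neither passed, with log2 differences of 1.75 and 0.20. With array weights, however, Ccl7 passed in BMD cells as well (2.21, adjusted p = 0.00624).

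Ccl3 and Ccl4 fell in BMD MLCs. Ccl4 was 2.33, 2.85 and 3.84 log2 CPM (lowest, median, highest), below every BMD macrophage library, and fell by 4.08 (SE 0.74, adjusted p = 0.000201). Ccl3 was 3.27, 4.11 and 5.38, below the macrophages' 6.38, 6.68 and 6.31, and fell by 2.22 (adjusted p = 0.00628). Both are known as early products of activated macrophages. In ER-Hoxb8 MLCs Ccl4 spanned 4.09 to 9.65 around a median of 7.03, on both sides of the macrophages (log2 difference 0.09), and Ccl3 spanned 4.67 to 7.88 (−1.72, under the limit of 2). Replicate 6 was highest for both genes and replicate 4 lowest. Ccl3 passed without ER-Hoxb8 macrophage replicate 2 (−2.25) or MLC replicate 6 (−2.10).

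Ccl5 rose in both. In macrophages it was −0.33, −0.65 and 1.93 log2 CPM (BMD) and 1.38, 1.43 and 2.19 (ER-Hoxb8). It was 2.05, 2.84 and 3.65 (lowest, median, highest) in BMD MLCs and 7.41, 8.72 and 10.16 in ER-Hoxb8 MLCs. None of the MLC libraries overlapped its macrophages, and replicates 3, 5 and 6 were the highest of the ER-Hoxb8 group. The log2 differences were 2.54 (SE 0.64, adjusted p = 0.00397), lost with an offset of 1 CPM (1.82), and 7.01 (SE 0.64, adjusted p = 5.86e-09).

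Markers of T and NK cells, which are known to make Ccl5, were also present in MLCs. Their sum was 4.87 to 17.7 CPM in BMD MLCs and 36.8, 28.5, 183, 7.59, 35.9 and 419 CPM in ER-Hoxb8 MLC replicates 1 to 6, with Nkg7 the most abundant. Macrophages held 0.349 to 1.28 CPM. Of 5 such markers, 2 rose in BMD MLCs and 4 in ER-Hoxb8 MLCs against macrophages. In ER-Hoxb8 MLC replicate 4, where Ccl5 was 8.13, Cd3e and Ncr1 were at the floor, while Nkg7 (1.90) and Klrb1c (1.67) were present. Cd8a was higher in every ER-Hoxb8 MLC library, this one included, than in the ER-Hoxb8 macrophages. Without replicates 3 and 6, the 2 with the most of these markers, 8 of the 9 passed in ER-Hoxb8 MLCs against macrophages: the same 6 and falls of Ccl3 and Ccl6. The part of such cells in the Ccl5 levels was not tested.

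Ccl9 was the chemokine that fell in the MLCs of both sources. It was 7.55, 6.86 and 9.18 log2 CPM in BMD macrophages and 8.14, 8.22 and 7.06 in ER-Hoxb8 macrophages. In BMD MLCs it was 4.58, 5.26 and 6.27 (lowest, median, highest), and in ER-Hoxb8 MLCs 3.18, 4.05 and 7.69. The BMD groups do not overlap, while ER-Hoxb8 MLC replicate 6 lies within the macrophage range. Ccl9 fell by 2.54 (SE 0.64, adjusted p = 0.00381) and by 3.24 (SE 0.64, adjusted p = 0.000383). Without BMD macrophage replicate 3 the first difference was −1.88 and under the limit. Ccl6, its neighbor on the chromosome, did not pass in either source, and it split the ER-Hoxb8 MLCs by name: 6.30, 6.05 and 6.61 in the GFPHox libraries and 9.66, 9.71 and 10.89 in the WTHox libraries. The neutrophil gene S100a8 split the same way, 6.08 to 7.77 against 10.40 to 13.54. Ccl6 in ER-Hoxb8 MLCs (−1.89) passed without replicate 4 (−2.18), 5 (−2.19) or 6 (−2.42), and with the GFPHox libraries alone (−3.77). It also passed with array weights (−2.86), with the replicate block (−2.58) and without replicates 3 and 6 (−2.16).

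**Figure D2:**
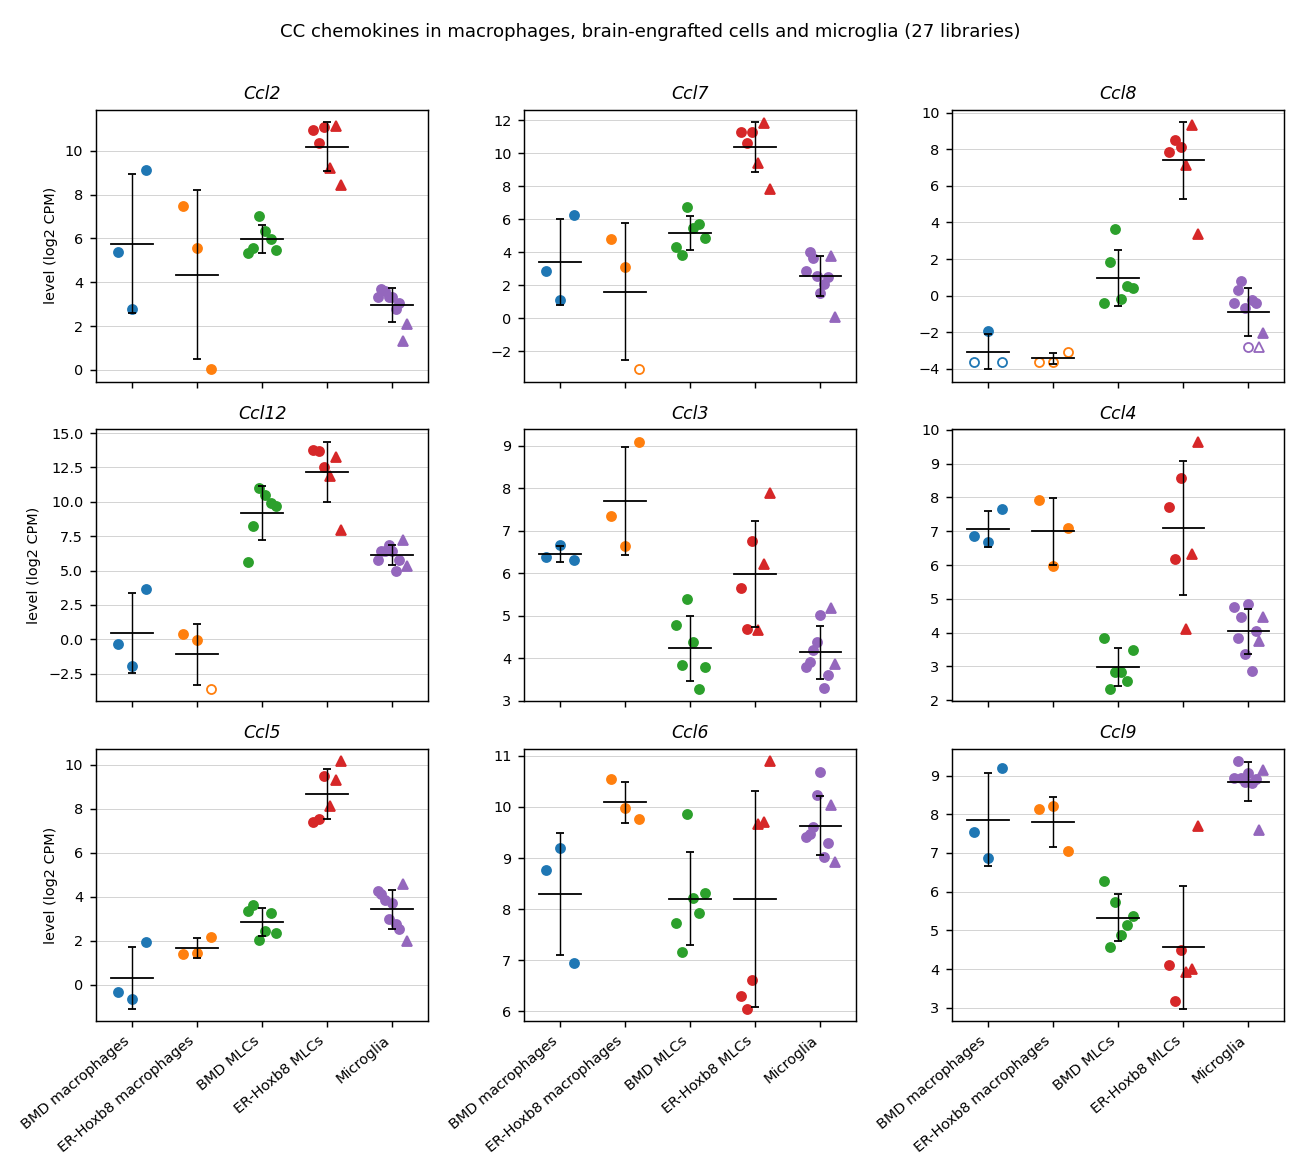
Level (log2 CPM) of each chemokine in 27 libraries of macrophages, MLCs and Microglia; points are libraries (triangles WTHox or YSWT, open at or under 3 counts) and bars are mean and SD. Ccl2, Ccl5, Ccl7, Ccl8 and Ccl12 have their highest medians in ER-Hoxb8 MLCs, and Ccl9 its lowest.

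The difference of MLCs from cultured macrophages was then compared between the sources, as a difference of differences. Here the signed change was higher in ER-Hoxb8 cells for 5 of the 9, where it was for 1.67% of genes, and lower for none, where it was for 0.807% (limma; 6 of the 9 and 1920 genes had an unadjusted p under 0.05, in either direction). For Ccl4 the difference is the fall in BMD cells beside 0.09 in ER-Hoxb8 cells. Ccl5 differed by 4.48 (SE 0.90, adjusted p = 0.0045) and Ccl8 by 6.79 (SE 1.45, adjusted p = 0.00718). Those 2 passed with each library left out in turn and in the WTHox libraries alone. Ccl7 (7.01, adjusted p = 0.022), Ccl4 (4.18, 0.0235) and Ccl2 (5.63, 0.046) were less secure. All 3 were lost without BMD macrophage replicate 3 (Ccl7 5.59, Ccl4 3.88, Ccl2 3.95) and without ER-Hoxb8 macrophage replicate 3 (4.67, 4.23, 3.47). Without ER-Hoxb8 macrophage replicate 2, Ccl4 (3.66) and Ccl2 (6.22) were lost, and Ccl2 was lost also without BMD macrophage replicate 1 (5.82), BMD MLC replicate 1 (5.50), 2 (5.55), 4 (5.71), 5 (5.63) or 6 (5.53) and ER-Hoxb8 MLC replicate 1 (5.47), 2 (5.59), 3 (5.45) or 5 (5.44), with no filter and with the replicate block (5.63 each). Ccl12, which rose in both sources, did not pass this test (4.58, adjusted p = 0.151), but passed without ER-Hoxb8 MLC replicate 6 (5.43, 0.0419) and with array weights (3.23, 0.0453), which also called Ccl6 lower (−2.23). Without ER-Hoxb8 MLC replicates 3 and 6 the count was 4 (Ccl4, Ccl5, Ccl7, Ccl8), and in the WTHox libraries 2. In the GFPHox libraries it was 7, with Ccl12 higher (5.73) and Ccl6 lower (−3.67) in ER-Hoxb8 cells besides the 5. With only the groups of the comparison in the fit, Ccl5 and Ccl8 remained.

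Placed directly beside BMD MLCs, ER-Hoxb8 MLCs had more of 6 of the 9, where 2.12% of 12518 genes rose, and less of none, where 4.44% fell. At an unadjusted p under 0.05, limma had 7 of the 9 and 3623 genes. Both groups lived in the same kind of host brain, but the cell source cannot be told apart from the other cells sorted with each. Of the T and NK cell markers, Cd3e (3.32), Cd8a (2.72) and Klrb1c (2.70) were higher in ER-Hoxb8 MLCs. Nkg7 (2.47) and Ncr1 (1.94) did not pass. The part of such cells in the Ccl5 difference was not tested. Markers of other cell types are given further on. Ccl8 differed by 6.42 (SE 0.84, adjusted p = 4.99e-06), with BMD MLC replicate 3 (3.62) above ER-Hoxb8 replicate 6 (3.35) as the one overlap. Ccl5 differed by 5.83 (SE 0.52, adjusted p = 1.37e-08), Ccl7 by 5.21 (1.00, 0.000781), Ccl2 by 4.22 (0.91, 0.00219) and Ccl4 by 4.11 (0.60, 2.83e-05), each with no overlap between the 6 and 6 libraries. Ccl12 differed by 3.02 (SE 0.98, adjusted p = 0.0373), with overlapping ranges. That call was lost without any one of BMD MLC replicates 1 (2.31), 2 (2.83) and 6 (3.13) or ER-Hoxb8 MLC replicates 1 (2.70), 2 (2.71), 3 (2.95) and 5 (2.81), and with only the MLC groups in the fit or no filter (3.02 each). The GFPHox and the WTHox libraries each gave 6 by themselves, though not the same 6: in the WTHox libraries Ccl12 was out (1.87) and Ccl3 was in. Without replicates 3 and 6 the count was also 6. Ccl3 (1.74, under the limit) passed without ER-Hoxb8 MLC replicate 2 (2.00) or 4 (2.00). Ccl6 differed by 0.00, an average over its 2 separate library series.

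Native Microglia are the cells that MLCs stand in for. In Microglia, Ccl6 and Ccl9 were the highest of the 9, at 8.93, 9.47 and 10.68 log2 CPM (lowest, median, highest) and at 7.59, 8.93 and 9.36. Ccl12 was 4.99, 6.40 and 7.23, Ccl4 was 2.85, 4.04 and 4.86, Ccl5 was 2.00, 3.70 and 4.60, and Ccl3 was 3.30, 3.91 and 5.17. Ccl2 (1.31, 3.34, 3.69) and Ccl7 (0.09, 2.54, 3.99) were lower than in most MLC libraries. Ccl8 was at the floor in replicates 5 and 8 and at most 0.80 elsewhere. The YSWT libraries had the lowest Ccl2 of the 9 and, in replicate 9, the lowest Ccl7. Replicate 8 had the lowest Ccl9 and the most oligodendrocyte RNA, summed at 628 CPM, with Sall1 (8.58) as in other Microglia.

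In ER-Hoxb8 MLCs against Microglia, 6 of the 9 rose, where 7.18% of genes did, and 1 fell, where 9.11% did. In BMD MLCs against the same Microglia, 3 rose, where 6.61% did, and 1 fell, where 4.07% did. The median log2 differences of the 9 were 5.25 and 0.10, beside −0.10 and 0.06 over all genes. Because the 2 comparisons share the Microglia libraries, their values are given side by side. Ccl2 was higher by 7.23 in ER-Hoxb8 MLCs (SE 0.83, adjusted p = 1.04e-07) and by 3.01 in BMD MLCs (0.83, 0.00947), and every MLC library was above every Microglia library. Ccl12 was higher by 6.05 (SE 0.89, adjusted p = 6e-06) with no overlap, and by 3.03 (0.89, 0.0152) with BMD MLC replicate 1 inside the Microglia range. Ccl7 was higher by 7.81 (SE 0.92, adjusted p = 1.56e-07) with no overlap, and by 2.60 (0.92, 0.0446) with overlap of BMD MLC replicate 2.

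The BMD Ccl7 call was fragile. It was lost without BMD MLC replicate 1 (2.77), 3 (2.28), 4 (2.54), 5 (2.48) or 6 (2.65), without Microglia replicate 1 (2.64), 4 (2.60), 5 (2.47), 6 (2.54), 7 (2.59) or 9 (2.29), with median scaling (2.46), with no filter (2.60), without the YSWT libraries (2.42) and with the replicate block (2.38), which also lost Ccl2 (2.61). In ER-Hoxb8 MLCs alone, Ccl8 was higher by 8.29 (SE 0.77, adjusted p = 2.12e-09), Ccl5 by 5.25 (0.48, 1.52e-09) and Ccl4 by 3.05 (0.55, 9.06e-05). The Ccl8 and Ccl5 ranges stood apart from Microglia, while Ccl4 in ER-Hoxb8 MLC replicate 4 (4.09) lay among them. The T and NK cell markers Cd3e (4.14), Cd8a (2.91), Nkg7 (4.08) and Klrb1c (4.84) were also higher in ER-Hoxb8 MLCs than in Microglia. Ncr1 (1.54) did not pass. In BMD MLCs Klrb1c was higher (2.14) and the others did not pass. The part of such cells in the Ccl5 difference was not tested. Ccl9 was lower in both MLC groups, by 4.28 (SE 0.47, adjusted p = 5.75e-08) and by 3.51 (0.47, 3.04e-06), and replicate 6 of the ER-Hoxb8 MLCs just overlapped Microglia replicate 8. Ccl3 in ER-Hoxb8 MLCs (1.84, under the limit) passed without replicate 2 (2.10) or 4 (2.11). Without ER-Hoxb8 MLC replicates 3 and 6 the count against Microglia was again 7, and with the GFPHox libraries alone it was 8, with Ccl6 lower (−3.31).

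Marker lists describe what else was in the sorted cells. Against macrophages of the same source, 5 of 5 microglia markers rose in BMD MLCs and 4 of 5 in ER-Hoxb8 MLCs. Against Microglia 3 and 5 of 5 fell, and Sall1, which sets microglia apart from other macrophages, was at most 2.66 log2 CPM in MLCs and at least 8.31 in Microglia. Of 5 neutrophil markers 3 rose in each MLC group against macrophages, summing to between 1794 and 14464 CPM in BMD MLCs and between 106 and 19796 CPM in ER-Hoxb8 MLCs, with Microglia up to 2511 CPM. Markers of border macrophages, which line the edges of the brain, summed to between 1492 and 2252 CPM in BMD MLCs, between 2.54 and 1002 in ER-Hoxb8 MLCs and at most 101 in Microglia. They were higher in BMD MLCs than in Microglia for 3 of 4, and lower in ER-Hoxb8 than in BMD MLCs for 3 of 4. The general macrophage markers summed to between 4837 and 7372 CPM in BMD MLCs and between 1865 and 6369 CPM in ER-Hoxb8 MLCs. Sums of astrocyte markers reached 15.9 CPM in MLCs, endothelial 90.6, neuronal 7.52 and oligodendrocyte 157 CPM, and at most 1 gene of each of these lists passed against Microglia. Among 4 dissociation-induced genes 1, Fos, was higher than in Microglia by 3.81 (BMD) and 4.45 (ER-Hoxb8), and Egr1 was lower in BMD MLCs (−3.05). Of the same genes Atf3 (−4.88) and Egr1 (−2.76) fell in BMD MLCs against macrophages, Egr1 (3.70) and Atf3 (2.39) were higher in ER-Hoxb8 than in BMD MLCs, and Atf3 differed in engraftment between sources (3.03). In these 3 comparisons Ccl4 passed in the same direction, but against Microglia Ccl4 passed in ER-Hoxb8 MLCs and Atf3 did not (1.59). Outside the brain, Atf3 and Ccl4 both rose in ER-Hoxb8 against BM progenitors (Atf3 4.93). Both fell in Adar1 KO macrophages at 10 against 0 uM baricitinib (Atf3 −4.20). Atf3 also rose at differentiation with NTC (6.92) and sgRNA 2 (6.74), where Ccl4 did not. Atf3 was lower in KO than in NTC macrophages at 10 uM (−2.01), and its response to that dose differed by genotype (−2.91). Ccl4 did not pass in either. The part of any of these in the chemokine differences was not tested.

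The Adar1 comparisons begin with the edited gene. Adar was 4.20, 3.42 and 4.28 log2 CPM in NTC progenitors and 4.36, 4.23 and 4.24 with sgRNA 1. In macrophages it was 5.73 and 5.67 with NTC and 6.96, 7.15 and 7.01 with sgRNA 1. With sgRNA 2 it was 4.35, 4.56 and 4.36 in progenitors and 6.99 to 7.03 in 5 macrophage libraries. Neither sgRNA 1 group was below its NTC group, and sgRNA 2 has no NTC group in its set. Adar is itself known as an interferon-induced gene, and the protein was not measured here.

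Differentiation of NTC progenitors to macrophages raised 4 of 7 tested chemokines, where 11% of 11008 genes rose and 12.6% fell. The 7 are the 9 without Ccl8 and Ccl12. Ccl6 was 7.88, 6.28 and 5.92 log2 CPM in NTC progenitors and 11.03 and 10.78 in NTC macrophages, a rise of 4.22 (SE 0.45, adjusted p = 5.22e-06). Ccl2 rose from −1.87, −0.41 and −0.04 to 3.00 and 3.00, by 3.77 (SE 0.44, adjusted p = 1.24e-05). Both macrophage libraries stood above all 3 progenitor libraries, and NTC macrophage replicate 2, scaled apart, read 10.68 for Ccl6 and 3.06 for Ccl2. Ccl5 rose by 2.78 (adjusted p = 0.000807), to 1.57 and 0.88, and Ccl7 by 2.17 (0.000317), to 0.62 and 0.48. These 2 ended low and were lost with an offset of 1 CPM (1.37 and 0.94), and Ccl7 also without NTC progenitor replicate 1 (1.91). Ccl3, Ccl4 and Ccl9 were high on both sides and did not pass. The median log2 difference of the 7 was 2.17, beside −0.08 over all genes.

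In cells with sgRNA 2, differentiation likewise raised 4 of 7, where 11.7% of 10698 genes rose and 7.61% fell. Ccl5 went from −1.19, −1.09 and −1.51 log2 CPM to between 7.14 and 7.41 in the 5 macrophage libraries, a rise of 8.57 (SE 0.11, adjusted p = 9.95e-13). Ccl2 rose by 6.10 (SE 0.08, adjusted p = 1.2e-12), from 0.46, 0.50 and 0.27 to between 6.43 and 6.56. Ccl6 rose by 4.68 (0.05, 5.43e-13) and Ccl7 by 6.06 (0.21, 1.31e-09), or 3.40 with an offset of 1 CPM, as its progenitor libraries were at or close to the floor. The libraries of this set repeat each other closely, and whether they are separate cultures is not in the labels. No NTC cells share the set, so the difference between guide and control was not tested for sgRNA 2. The median log2 difference of the 7 was 4.68, beside −0.03 over all genes.

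The sgRNA 1 cells were compared with NTC cells at both stages. In progenitors 0 of 7 passed, where 0.0818% of genes rose and 0.173% fell, with 1 of the 7 and 725 genes at an unadjusted p under 0.05 in limma. In macrophages 3 of 7 rose, where 3.24% of genes did, and none fell, where 0.772% did. At an unadjusted p under 0.05 there were 4 of the 7 and 3938 genes. The difference between these 2 stages was not tested. Ccl5 was 1.57 and 0.88 log2 CPM in NTC macrophages and 7.73, 7.89 and 6.20 with sgRNA 1, a difference of 6.05 (SE 0.56, adjusted p = 1.54e-05). Ccl2 was 3.00 and 3.00 against 8.44, 8.56 and 7.79, a difference of 5.26 (0.44, 7.72e-06). Ccl7 was 0.62 and 0.48 against 5.00, 5.75 and 4.65, a difference of 4.58 (0.38, 7.4e-06). Ranges were far apart for all 3, and adding NTC macrophage replicate 2, which read 1.85, 3.06 and 1.14, gave the same 3 calls. Ccl4 was higher in all 3 sgRNA 1 libraries (8.83, 9.22, 8.84 against 6.98 and 7.13) but did not pass (log2 difference 1.91, adjusted p = 0.0707). Ccl3 did not either (0.88, 0.301). With array weights Ccl4 passed (2.04, adjusted p = 0.0339). Ccl6 and Ccl9 overlapped or lay near NTC, and Ccl8 was at the floor, as in all macrophage libraries of the set. Ccl12, not tested as reported, was 0.48, 0.20 and −0.90 with sgRNA 1, above −1.75 and −2.90 (at the floor) with NTC. The NTC replicate scaled apart, however, read 2.17. With no filter Ccl12 was tested and passed (log2 difference 2.25, adjusted p = 0.0199).

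**Figure D3:**
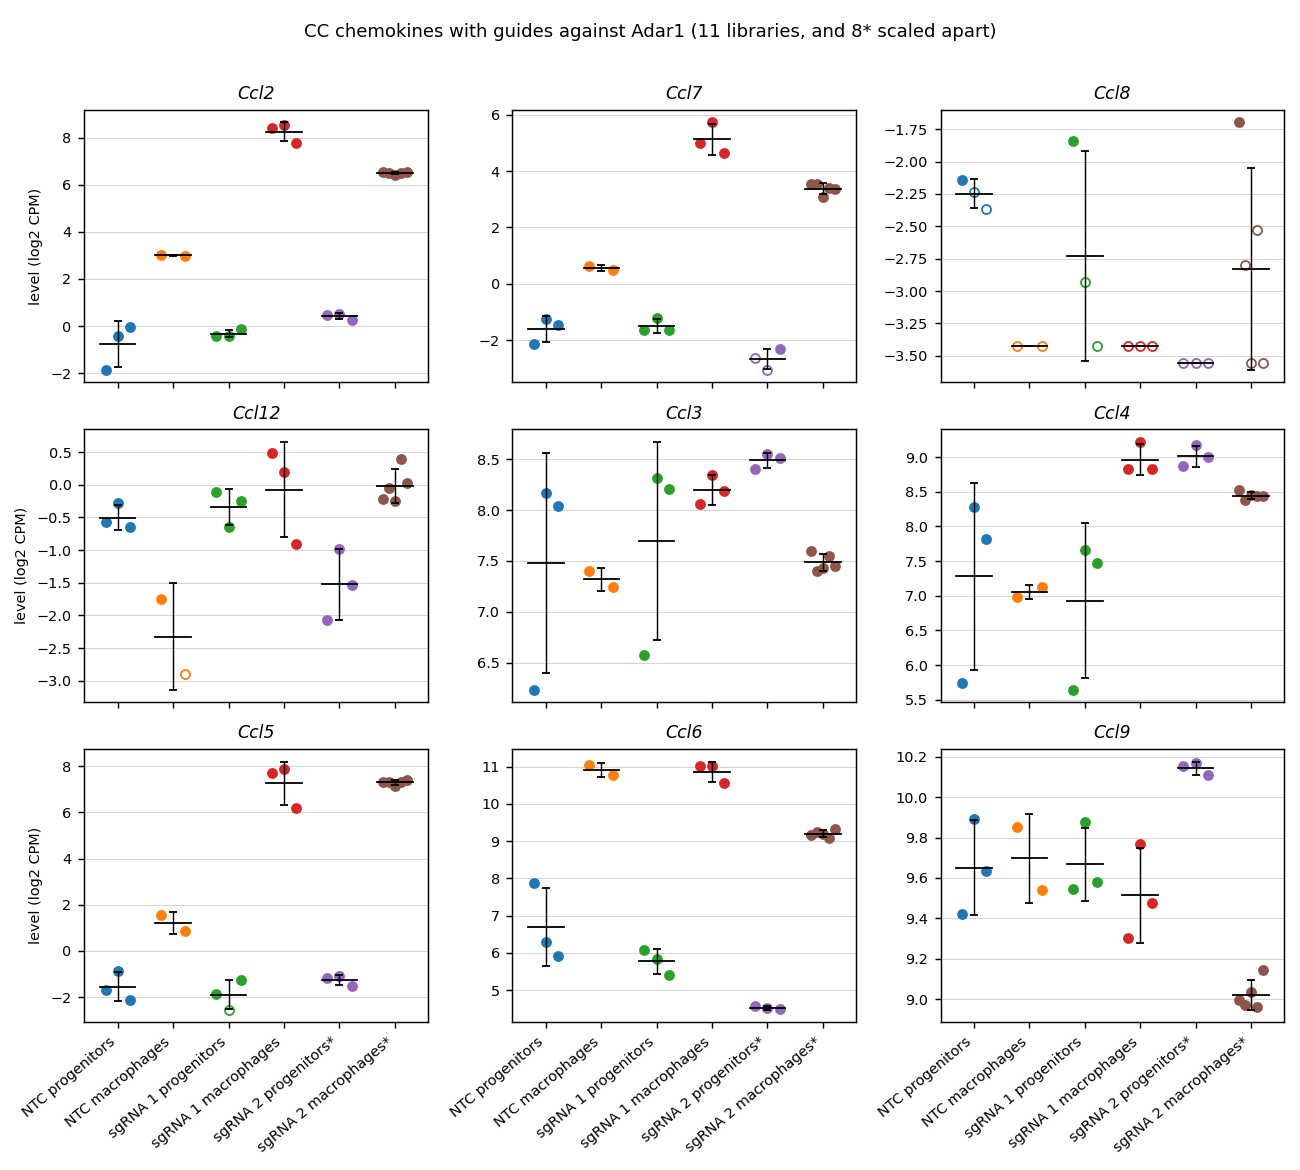
Level (log2 CPM) of each chemokine in progenitors and macrophages with a non-targeting guide or guides against Adar (19 libraries); the starred sgRNA 2 groups were scaled apart, NTC macrophage replicate 2 is not drawn, open points are at or under 3 counts, and bars are mean and SD. Ccl2, Ccl5 and Ccl7 are higher in sgRNA 1 macrophages than in NTC macrophages.

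The baricitinib series repeats the guide comparison at 5 doses in other libraries. Adar was 5.12, 4.94 and 4.69 log2 CPM in NTC and 7.42, 6.52 and 6.37 in Adar1 KO macrophages without drug, and 3.70, 3.64 and 3.22 against 1.55, 2.15, 2.91 and 2.03 at 10 uM, where all 4 KO libraries were lower (log2 difference −1.36, under the limit). Ccl8 was at the floor in all 33 libraries and is left out of the tests, so 8 were tested. At 0 uM, 2 of 8 rose in KO, where 1.92% of 11152 genes rose and 1.95% fell. At 0.0006 uM the count was 2 (2.03% of genes rose, 2.98% fell) and at 0.016 uM it was 3 (2.34% and 2.78%). It was 4 at 0.4 uM (1.23% and 0.556%) and 1 at 10 uM (0.744% and 2.39%). The chemokine counts are all of rises. Median log2 differences of the 8 were 1.16, 1.36, 1.75, 2.04 and 0.25 in order of dose.

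Ccl5 was the chemokine with the widest gap up to 0.016 uM. Without drug it was 0.22, 0.95 and 0.02 log2 CPM in NTC and 7.58, 6.69 and 6.74 in KO, a difference of 6.60 (SE 1.06, adjusted p = 3.17e-05). At 0.0006 uM it was 1.33, 0.80 and 1.24 against 6.76, 8.12 and 8.26, a difference of 6.59 (1.06, 2.63e-05). At 0.016 uM it was 1.15, 0.33, 0.12 and 0.93 against 8.25, 8.28 and 7.49, a difference of 7.37 (0.99, 1.62e-06). KO libraries were all far above NTC at these doses. At 0.4 uM NTC was −0.65, −0.73, 0.12 and 0.17 and KO 0.34, 8.71 and 1.97, so KO was still above NTC but replicate 2 stood alone. The difference of 3.95 (adjusted p = 0.00872) was 1.43 without it and not called. At 10 uM the groups overlapped, at 0.31, 0.57 and 1.68 against 0.59, 0.30, 1.05 and 0.64 (−0.21, adjusted p = 0.886).

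Ccl7 was above NTC in every KO library up to the highest dose. It was 0.54, 1.30 and 0.26 log2 CPM in NTC against 3.82, 3.70 and 4.16 in KO without drug, a difference of 3.19 (SE 0.68, adjusted p = 0.000878). It differed by 3.32 (adjusted p = 0.000457) at 0.0006 uM and by 3.20 (0.000264) at 0.016 uM, with all KO libraries above all NTC libraries. At 0.4 uM the KO libraries read 3.17, 7.74 and 2.98, and the difference of 3.65 (adjusted p = 0.00023) was 2.09 without replicate 2 and still called. With only the 2 groups of that dose in the fit it was lost, as were Ccl2 and Ccl5. With array weights Ccl7 remained, while Ccl2 (1.53), Ccl5 (1.88) and Ccl12 (0.67) did not. At 10 uM, KO read 4.13, 4.03, 3.63 and 3.46 against 1.37, 1.87 and 1.42, a difference of 2.25 (SE 0.63, adjusted p = 0.00474), or 1.97 and under the limit with an offset of 1 CPM.

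Ccl2 was likewise above NTC in every KO library at every dose, by less. It was 5.70, 6.16 and 5.67 log2 CPM against 6.94, 7.01 and 7.36 without drug (difference 1.26, adjusted p = 0.0387, under the limit of 2). At 0.016 uM the difference was 2.05 (SE 0.42, adjusted p = 0.000368) and just past the limit. It was under the limit without NTC replicate 1 (1.93) or 4 (1.98) or KO replicate 2 (1.97) and with array weights (1.94). At 0.4 uM it was 2.46 (adjusted p = 0.000181), of which KO replicate 2, at 10.33 against 7.09 and 7.24, decided the call, since without it the difference was 1.41. Ccl12 was low in all these cells. At 0.016 uM it was 0.97, 0.82 and 0.88 in KO, above every NTC library, with a difference of 2.21 that did not pass (adjusted p = 0.0548), but did with median scaling (2.24), array weights (2.13) and only the 2 groups in the fit (2.21). With array weights it passed at 0 uM as well (2.05). Its call at 0.4 uM (2.84, adjusted p = 0.0313) rested on the same library, at 5.64 against 0.39 and −0.82, and was lost without it (0.89), without NTC replicate 1 (2.46) or 4 (2.75), with an offset of 1 CPM (1.98) and with no filter (2.84). With KO replicate 2 out, the count at 0.4 uM was 1, Ccl7.

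Ccl3, Ccl4 and Ccl9 shifted by less than the limit. Without drug Ccl3 was 6.29, 6.26 and 6.48 log2 CPM in NTC and 7.28, 7.21 and 7.38 in KO, a difference of 0.95 (adjusted p = 0.0385). Ccl4 was 6.69, 6.70 and 6.77 against 7.54, 7.82 and 8.00, a difference of 1.07 (0.0485). Ccl9 went the other way, 9.71, 9.90 and 9.88 against 8.61, 8.94 and 8.92, a difference of −1.01 (2.49e-06). None of the 3 genes overlapped between genotypes without drug, while at 0.4 uM Ccl3 overlapped and Ccl9 just did, the latter at 9.76 to 9.97 in NTC and 9.47 to 9.76 in KO. Ccl4 at 0.4 uM passed without KO replicate 1 (2.05) or 3 (2.07). Ccl6 overlapped or nearly did at each dose.

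Dose was also compared within each genotype, against the same libraries without drug. In NTC cells 0 of 8 passed at 0.4 uM, where 0% of genes rose and 0% fell, with 1 of 8 and 598 genes at an unadjusted p under 0.05 in limma. At 10 uM 0 passed as well, where 0.161% rose and 0.673% fell, with 4 of 8 and 3169 genes at an unadjusted p under 0.05. Ccl6 came closest, from 10.03, 9.84 and 10.14 log2 CPM to 8.05, 7.66 and 8.53, a separate and lower range whose difference of −1.92 (adjusted p = 1.9e-06) was under the limit of 2. It passed without NTC replicate 2 at 0 uM (−2.01) or replicate 3 at 10 uM (−2.15), which makes the count 1. Ccl12 was higher in all 3 libraries at 10 uM (0.83, 1.49, 1.16) than without drug (−0.71, −1.07, −2.78), but did not pass (2.68, adjusted p = 0.0549). It did with the replicate block (2.68, 0.043), with only these 2 groups in the fit (2.68, 0.0175) and with array weights (2.96, 0.000236).

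In KO cells at 0.4 uM, 1 of 8 fell, where 1.02% of genes rose and 0.906% fell. It was Ccl5, by 3.33 (SE 1.06, adjusted p = 0.0203). The call was lost without KO replicate 1 at 0 uM (−3.05), or without replicate 1 (−1.66) or 3 (−2.48) at 0.4 uM, and grew to −5.85 without replicate 2. With only these 2 groups in the fit it was lost as well. Without replicate 3 at 0.4 uM, Ccl12 passed instead (3.18). At 10 uM, 3 fell and 1 rose, where 5.51% of genes rose and 9.16% fell. Ccl5 fell by 6.36 (SE 0.99, adjusted p = 2.63e-06), from a range of 6.69 to 7.58 to one of 0.30 to 1.05. Ccl4, at 5.98, 5.93, 5.75 and 5.40, fell by 2.02 (SE 0.37, adjusted p = 2.89e-05). Ccl3, at 5.76, 5.36, 4.86 and 5.18, fell by 2.00 (0.31, 3e-06). Both ranges were below all KO libraries without drug, but sat on the limit. Ccl3 dropped out without KO replicate 3 at 0 uM (−1.96) or replicate 3 (−1.86) or 4 (−1.97) at 10 uM, and Ccl4 without KO replicate 3 at 0 uM (−1.91) or 4 at 10 uM (−1.90), so that the count was 2 in the worst case. With an offset of 1 CPM Ccl3 was lost (−1.98), and with median scaling both were (−1.92 and −1.94). Ccl12 rose by 2.39 (0.88, 0.0186), to 1.89, 2.61, 2.29 and 2.12 from −1.17, 0.38 and 0.29. That was 1.89 without KO replicate 1 at 0 uM and 1.62 with an offset of 1 CPM, both under the limit.

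Whether 10 uM acted differently in KO and in NTC cells was tested directly. The difference passed for 1 of 8, lower in KO, where 2.59% of genes were higher and 4.52% lower. This was Ccl5, at −6.82 (SE 1.45, adjusted p = 0.000541). Ccl4 (−1.67, adjusted p = 0.0166) and Ccl9 (0.59, 0.0131) were under the limit. For Ccl2, Ccl3, Ccl6, Ccl7 and Ccl12 the test did not pass, which does not show that the drug acted alike on them.

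**Figure D4:**
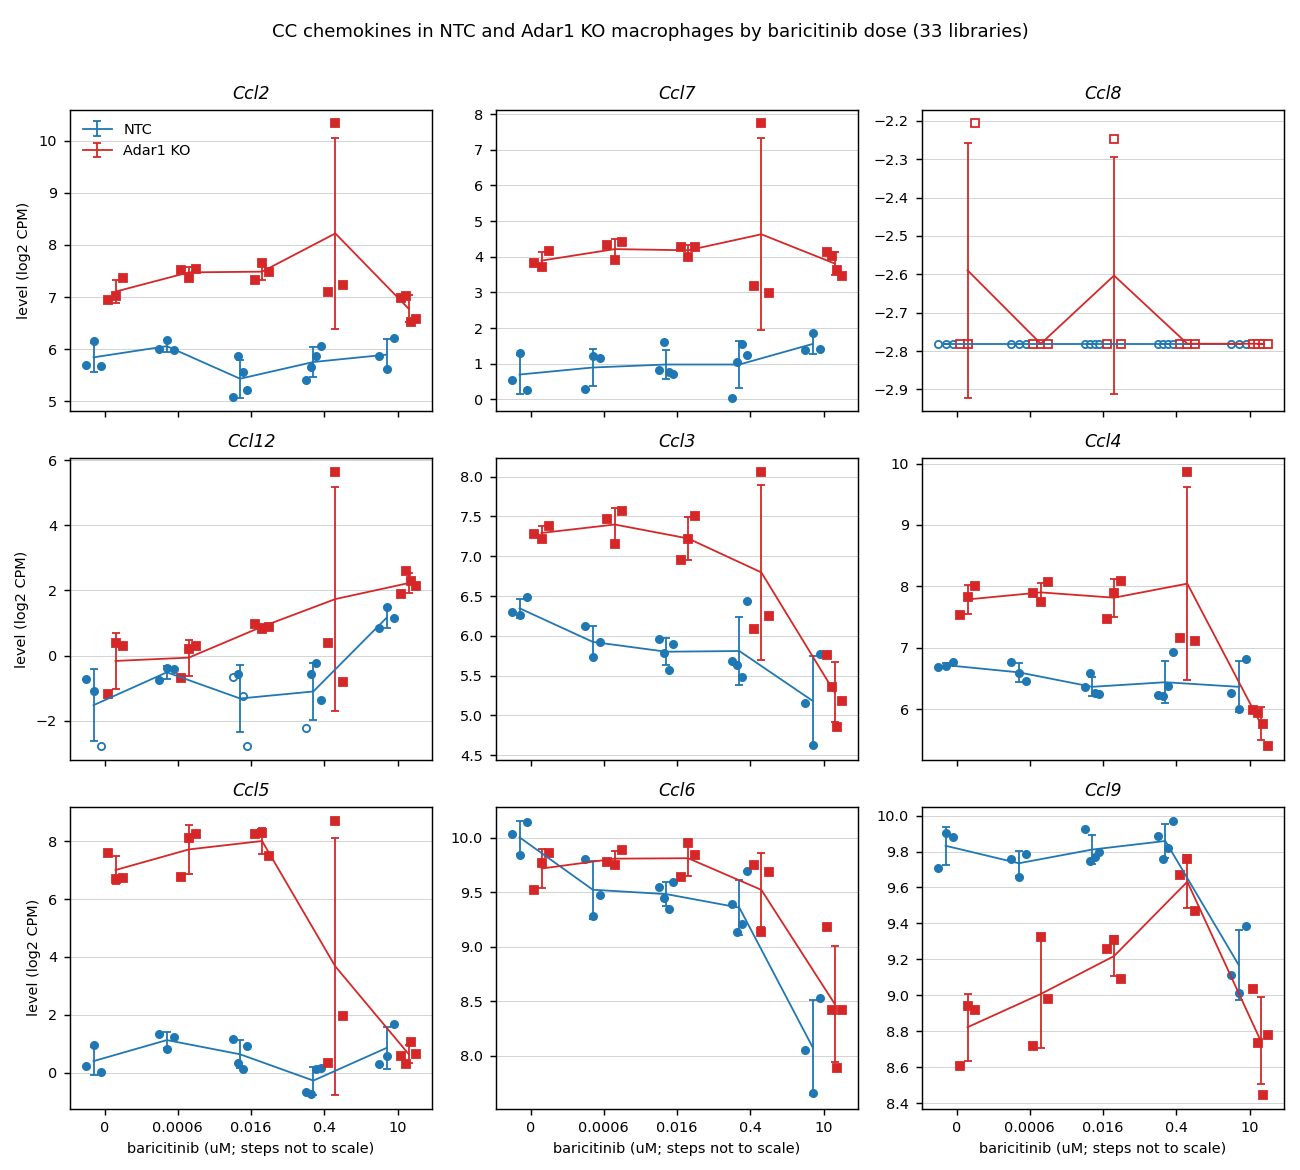
Level (log2 CPM) of each chemokine in 33 macrophage libraries by baricitinib dose (uM, steps not to scale), NTC in blue circles and Adar1 KO in red squares, open at or under 3 counts; lines join means and bars are SD. Ccl5 meets NTC at 10 uM while Ccl7 stays above it, and at 0.4 uM KO replicate 2 stands above the others for Ccl2, Ccl3, Ccl4, Ccl5, Ccl7 and Ccl12.

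Across the 24 comparisons, Ccl7 rose in 14 and Ccl2 in 10, and neither fell in any. Ccl8 rose in 5 of the 7 comparisons where it was tested and Ccl12 in 7 of 17, again with 0 falls. Ccl5 rose in 12 and fell in 4. These counts, and those that follow, include comparisons with shared control libraries, so they are not separate observations. They also include the differences of differences, between sources in engraftment and between genotypes at 10 uM. There a rise or fall is of the difference, as for Ccl4 in engraftment, which rose in neither source. Ccl3 rose in 1 and fell in 2, and Ccl4 rose in 4 and fell in 2. Ccl6 rose in 2, both at differentiation with a guide, and Ccl9 rose in 2 and fell in 4.

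**Figure D5:**
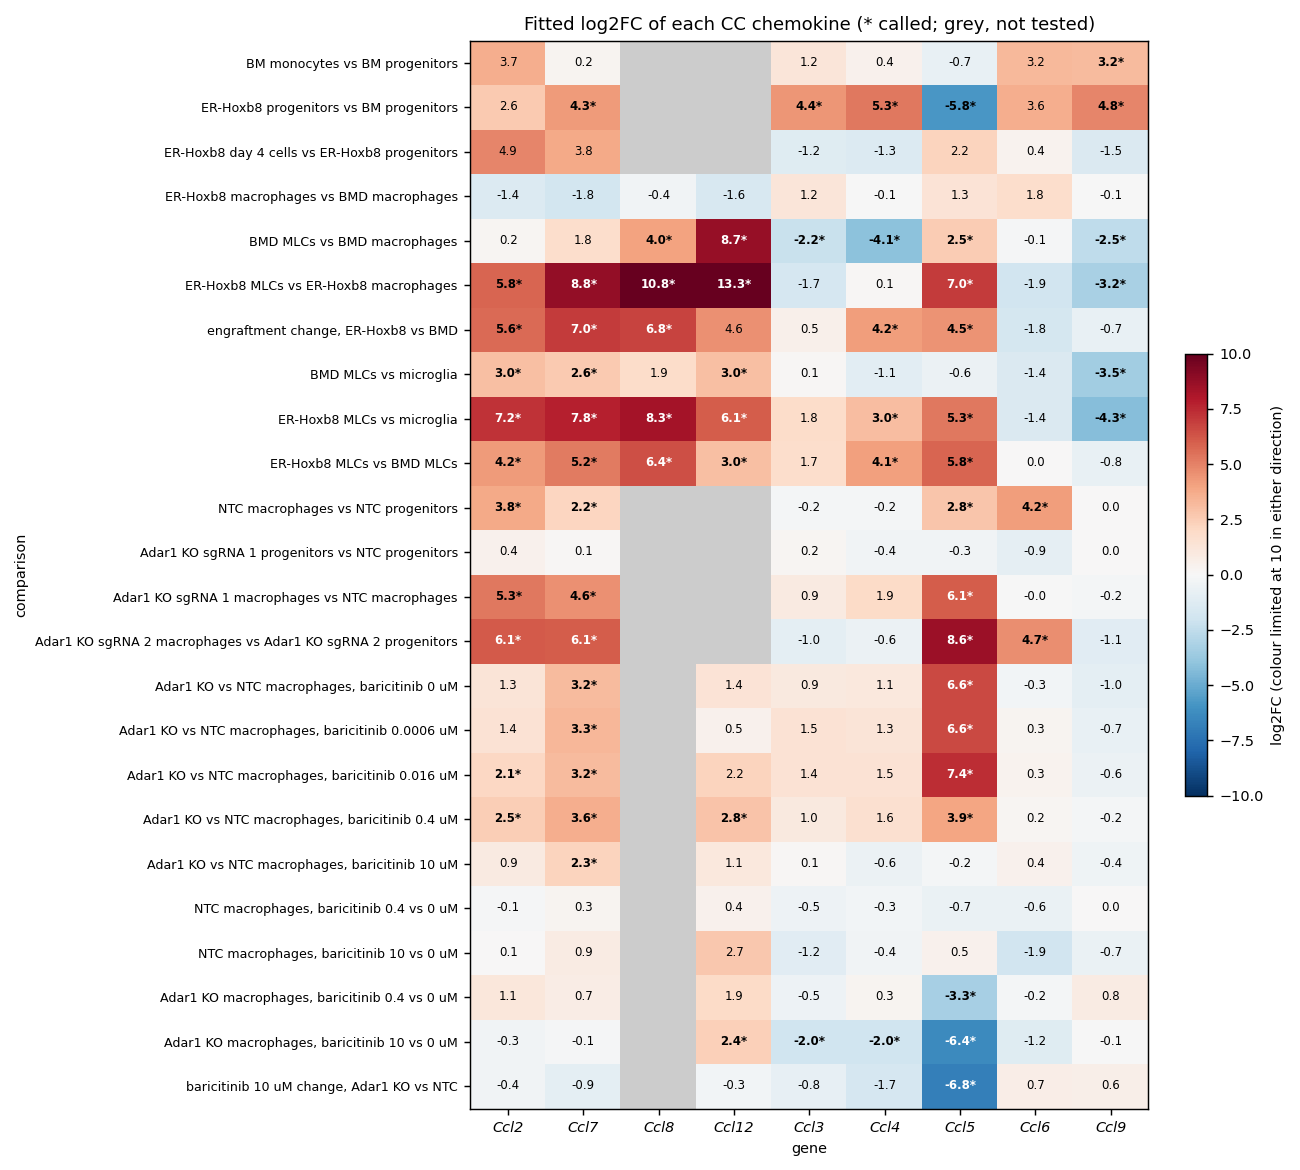
Fitted log2 difference of each chemokine (columns) in each of the 24 comparisons (rows of the grid), color limited at 10 in either direction, starred where it passed and gray where the gene was not tested. Ccl2, Ccl7, Ccl8 and Ccl12 have stars only for rises, and Ccl9 has its falls in the MLC comparisons.

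Receptors of these ligands were followed as a list of 7. In BMD MLCs against macrophages 3 of 4 tested rose: Ccr1 by 5.51, Ccr2 by 5.47 and Ccr3 by 4.93. In ER-Hoxb8 MLCs 2 of 4 rose, Ccr1 by 4.30 and Ccr3 by 6.82. Both MLC groups had more Ccr2 than Microglia (3.35 and 2.96), and between the MLC groups 0 of 4 passed although 6 of the 9 ligands did. At differentiation with NTC, Ccr1, Ccr2 and the decoy-like Ccrl2 rose, 3 of 3 tested, and so they did with sgRNA 2. In sgRNA 1 macrophages 1 of 3, Ccr1, was higher by 2.81. In the baricitinib series Ccr2, the receptor of Ccl2, Ccl7 and Ccl12, was lower in KO by 3.85 without drug, by 3.02 at 0.0006 uM and by 2.11 at 0.016 uM, where Ccl7 was higher. It rose by 3.35 in KO cells at 0.4 uM against 0 uM, to 7.55, 8.01 and 7.22 in replicates 1 to 3. The scavenger Ackr1 was lower in BM monocytes (−2.94) and in ER-Hoxb8 progenitors (−6.89) than in BM progenitors.

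Interferon response genes, a list of 8, moved in most of the comparisons where Ccl5 did. In BMD MLCs against macrophages 0 of 7 tested passed, and in ER-Hoxb8 MLCs 6 of 7 rose. Between ER-Hoxb8 and BMD MLCs 7 of 7 were higher, Isg15 by 4.95. Their sum was 171 to 347 CPM in BMD MLCs, 1504 to 7131 in ER-Hoxb8 MLCs and 114 to 192 in Microglia. In sgRNA 1 macrophages 6 of 7 were higher than NTC, Rsad2 by 7.04 and Irf7 by 5.61. In the baricitinib series 6 of 8 were higher in KO at 0, 0.0006 and 0.016 uM, 5 of 8 at 0.4 uM (KO replicate 2 included) and 0 of 8 at 10 uM. At 10 uM 8 of 8 fell in KO cells, Irf7 by 9.47, while 0 of 8 passed in NTC cells, and the difference between them passed for 6 of 8. KO replicate 2 at 0.4 uM held the highest Ccl5 of its dose and the highest Isg15.

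NF-kB genes, a list of 7 with factors that act on Ccl2 to Ccl5, changed in few comparisons at the RNA level. In ER-Hoxb8 MLCs against macrophages the feedback genes Nfkbia (2.96) and Tnfaip3 (3.33) rose, and in the comparison of engraftment between sources Tnfaip3 differed by 3.09. At differentiation Relb rose by 3.46 (NTC) and 3.45 (sgRNA 2) and Nfkb1 fell by 2.89 and 2.53. At 10 uM in KO cells Rela fell by 2.54, where Ccl3 and Ccl4 fell too. Of 11 other CC chemokines few were abundant enough to test. Ccl24 rose by 5.42 in BMD MLCs against macrophages and was lower by 3.27 in ER-Hoxb8 than in BMD MLCs, and Ccl22 was lower by 2.73 in KO at 0.0006 uM. Of the 2 proteases that trim CC chemokines, Mmp12 fell by 9.05 in BMD MLCs and by 7.47 in ER-Hoxb8 MLCs against macrophages, where Ccl12 rose, and it was higher by 3.75 in sgRNA 1 macrophages. It also rose by 6.52 in ER-Hoxb8 against BM progenitors. Dpp4 rose by 4.61 in BMD MLCs, and fell by 2.07 in BM monocytes and by 9.51 in ER-Hoxb8 progenitors against BM progenitors.

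Ccl2 and Ccl7, neighbors on the chromosome, had like patterns, and so did the neighbors Ccl3 and Ccl4. Over the 27 libraries of macrophages, MLCs and Microglia, Pearson's r of log2 CPM between Ccl2 and Ccl7 was 0.94, and over the 33 libraries of the baricitinib series it was also 0.94. For Ccl3 and Ccl4 it was 0.82 and 0.93. Ccl8 had r of 0.85 with Ccl7 and 0.83 with Ccl12 and with Ccl5 over the 27. These libraries fall into groups and share their scaling, so r describes the layout of groups and is given without a test. Of all other genes tested over the 27, Ccl8 was most like F830016B08Rik (0.98), Tgtp1 (0.95) and Iigp1 (0.95). Ccl5 was most like Ly6a (0.95), Cxcl9 (0.94) and Sepw1 (0.93), and Ccl12 most like Gbp7 (0.92), Slamf6 (0.91) and Rnase6 (0.91). Ccl2 had Hells first (0.91), Ccl7 Xaf1 (0.91), Ccl3 Cmpk1 (0.95), Ccl4 Nme2 (0.91), Ccl9 Cpsf3 (0.90) and Ccl6 Frat1, at a looser 0.77. Over the 33, Ccl5 was most like Apol9a (0.98), and Ccl2 and Ccl7 both had Cd69 first (0.94 and 0.96). Ccl3 had Cd274 (0.96), Ccl4 Tor3a (0.94), Ccl6 F7 (0.94), Ccl12 Skil (0.89) and Ccl9 the receptor gene Ccr2 (0.92).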

How the data were processed

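The authors trimmed reads with fastp, counted transcripts with kallisto 0.46.0 (GRCm39), summed them with tximport and scaled them by TMM in edgeR. The authors deposited log2 CPM with a prior count of 2, and these values were used as deposited. Sets of libraries were recognized by the lowest value of each column. In each set limma 3.58.1 (R 4.3.3) fitted one mean per group to genes above 1 CPM in at least 3 libraries (6 in the set of 27). Adjusted p-values (Benjamini-Hochberg) cover all genes tested in a comparison, and a gene passed at an adjusted p under 0.05 with a log2 difference of at least 2. The fit was tested on simulated data. Tables and figures used Python 3.11.15, pandas 2.3.3, numpy 2.4.6 and matplotlib 3.10.9.

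Each of the 9 chemokines is described, with every one that passed named. The most similar genes are the 3 with the highest Pearson's r over the libraries of a set. The chemokines and the lists (other CC chemokines, receptors, NF-kB, interferon response, proteases, and markers of macrophages, microglia, neutrophils, T and NK cells, border macrophages, astrocytes, endothelium, neurons, oligodendrocytes and dissociation) were chosen with earlier results of these data known. One item planned for a list is not reported here.

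The alternatives were an offset of 1 CPM, no filter, median scaling, only the groups of the comparison, array weights, no limit on the log2 difference, a replicate block, each library left out in turn, separate library series, no YSWT libraries and the added NTC macrophage library. Chosen after seeing the data were leaving out ER-Hoxb8 MLC replicates 3 and 6 or ER-Hoxb8 progenitor replicates 1 and 2, and the replicate block within the groups of a comparison. In day 4 cells against ER-Hoxb8 progenitors, and in sgRNA 1 against NTC progenitors, each of the 3 same-numbered pairs had r over 0.1 after group means were removed, and a replicate block fitted to those groups left both counts at 0.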

Additional observations from a re-analysis of the deposited data

Results flagged for a closer look

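In 63 combinations of a chemokine and a group of 4 to 10 libraries, 5 had 1 library far from the rest of its group. Chance gives about 1 in 20 groups. ER-Hoxb8 MLC replicate 6 accounts for 3 of them: Ccl8 at 3.35 log2 CPM where the nearest other library was 7.14, Ccl12 at 7.98 where the nearest was 11.90, and Ccl9 at 7.69 where the nearest was 4.50. This library also had the most T and NK cell markers of its group. Microglia replicate 8 had Ccl9 at 7.59 where the nearest was 8.80. NTC macrophage replicate 2 at 0.016 uM had Ccl7 at 1.61 where the nearest was 0.82. The causes were not tested.

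Between ER-Hoxb8 and BMD cells, the log2 difference of MLCs from cultured macrophages was not the same by limma. It was higher in ER-Hoxb8 cells for Ccl2 (5.63), Ccl4 (4.18), Ccl5 (4.48), Ccl7 (7.01) and Ccl8 (6.79), as a signed value. The response to 10 uM baricitinib differed between Adar1 KO and NTC macrophages for Ccl5, by −6.82. Why these differ was not tested.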

How the results depend on the processing

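Counts of chemokines that passed are given here for each alternative that changed them by more than 1.5 times. No result reversed its direction. Where the alternative does not itself show it, the cause was not tested.

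With array weights, BM monocytes against BM progenitors gave 3 (1 as reported), Adar1 KO against NTC at 0.4 uM gave 1 (4) and NTC cells at 10 uM against 0 uM gave 1 (0). With only the groups of the comparison, BM monocytes gave 3, the difference between sources in engraftment 2 (5), NTC macrophages against progenitors 1 (4; the other 3 were not tested), KO against NTC at 0.4 uM 0, NTC at 10 uM 1 and KO at 0.4 uM against 0 uM 0 (1). With the replicate block, BMD MLCs against Microglia gave 2 (4) and NTC at 10 uM gave 1. The WTHox libraries alone gave 2 for engraftment. With an offset of 1 CPM, NTC macrophages against progenitors gave 2, KO against NTC at 10 uM 0 (1) and KO at 10 uM against 0 uM 2 (4). The last was also 2 with median scaling.

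With no limit on the log2 difference, sgRNA 2 macrophages gave 7 (4). KO against NTC gave 6 at 0, 0.0006 and 0.016 uM (2, 2 and 3) and 2 at 10 uM. NTC cells at 10 uM gave 3, KO cells at 0.4 uM 2, and the difference in response to 10 uM 3 (1). Here more genes can pass by construction. Without ER-Hoxb8 progenitor replicates 1 and 2, a single progenitor library is left, so no count is given for day 4 cells.

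Leaving out single libraries gave 2 to 6 for engraftment, 1 to 5 for KO against NTC at 0.4 uM, 2 to 4 for KO at 10 uM, 0 to 1 for KO at 0.4 uM, 0 to 1 for NTC at 10 uM and 0 to 3 for day 4 cells. Ccl8 was at the floor in 67 of 92 libraries, so levels within those libraries cannot be told apart.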
